A study of Mus musculus with 6 samples.

Results

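The genes described here are the secreted Wnt ligands of the mouse, the receptors and inhibitors that act on them, and the proteins and target genes downstream. They were taken by symbol: every *Wnt*, *Fzd*, *Dkk* and *Sfrp* gene in the deposited tables, together with *Lrp5*, *Lrp6*, *Axin1*, *Axin2*, *Ctnnb1*, *Lef1*, *Tcf7*, *Tcf7l1*, *Tcf7l2*, *Nkd1*, *Sp5* and *Lgr5*. This gave 49 of the 23420 gene symbols, made up of 19 ligands, 10 Frizzled receptors, 4 Dkk and 4 Sfrp inhibitors, 2 co-receptors, 4 TCF/LEF factors, β-catenin with its scaffold *Axin1*, and 4 feedback and target genes. RNA-seq compared wild-type (WT) E14 mouse embryonic stem cells (ESCs) with *Patz1* -/- ESCs (KO) of the same line, in 3 libraries each, to ask how transcription differs without the zinc finger protein PATZ1. The cells of both genotypes were grown with LIF, the MEK1/2 inhibitor PD0325901 and the GSK3 inhibitor CHIR99021. The KO was made with Cas9 and a guide RNA expressed from a plasmid, and the number of KO lines that were sequenced is not given in the sources used here.

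Wnt ligands are lipid-modified secreted proteins that bind a Frizzled receptor together with LRP5 or LRP6. Without ligand, a complex built on AXIN1 and APC lets GSK3 phosphorylate β-catenin, which is then degraded, while with ligand β-catenin accumulates and acts on DNA through the TCF/LEF factors. CHIR99021 blocks GSK3 itself and so keeps β-catenin signalling on without ligand, one of the conditions that hold mouse ESCs in the naive state. Target genes such as *Axin2*, *Sp5* and *Nkd1* answer to β-catenin, and several of them encode brakes on the same pathway.

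Promoters were taken from RefSeq on GRCm38.p6, from 250 bases before to 50 bases after each start. Of the 49 genes, 33 had a promoter in that collection, 42 promoters in all. Those of *Axin2*, *Sp5* and *Wnt3a* are shown because *Axin2* and *Wnt3a* were lower in KO while *Sp5*, a direct target like *Axin2*, was not called. They lie at chr11:108920099-108920398 on the plus strand (*Axin2*), chr2:70474673-70474972 on the plus strand (*Sp5*) and chr11:59290702-59291001 on the minus strand (*Wnt3a*). Capitals mark CTTTGA, the core bound by TCF/LEF factors, and the G-rich run GGGAGGG, each searched on both strands.
Axin2: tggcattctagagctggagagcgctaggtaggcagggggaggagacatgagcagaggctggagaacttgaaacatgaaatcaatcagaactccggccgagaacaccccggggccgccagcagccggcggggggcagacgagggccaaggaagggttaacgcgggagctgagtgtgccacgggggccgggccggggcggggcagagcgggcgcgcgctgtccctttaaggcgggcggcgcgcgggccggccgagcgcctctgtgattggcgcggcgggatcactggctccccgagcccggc
Sp5: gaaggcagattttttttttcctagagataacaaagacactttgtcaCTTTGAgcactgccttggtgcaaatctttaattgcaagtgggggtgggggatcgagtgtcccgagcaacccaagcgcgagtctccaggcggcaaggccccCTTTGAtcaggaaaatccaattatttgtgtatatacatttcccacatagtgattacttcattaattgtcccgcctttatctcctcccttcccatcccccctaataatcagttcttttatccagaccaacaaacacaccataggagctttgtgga
Wnt3a: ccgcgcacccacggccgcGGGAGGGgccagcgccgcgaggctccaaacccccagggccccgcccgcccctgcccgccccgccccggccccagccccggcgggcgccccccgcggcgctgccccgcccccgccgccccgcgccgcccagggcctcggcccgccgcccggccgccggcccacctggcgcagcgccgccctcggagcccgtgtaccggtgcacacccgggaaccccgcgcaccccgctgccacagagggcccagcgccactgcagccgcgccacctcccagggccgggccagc

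The *Sp5* window held CTTTGA at -204 and -104 from the start, counted to the first letter of the match on the strand of the gene. The *Axin2* window held neither word, and that of *Wnt3a* held GGGAGGG once, at -232. A promoter of *Wnt5b*, which was also lower in KO, held CTTTGA at -71 and GGGAGGG at -204, and its other promoters held neither. CTTTGA was present in 5257 of the 32851 promoters (16%) and in 6 of the 42 promoters of the Wnt genes (14.3%). GGGAGGG was present in 21.95% of all promoters and in 19 of the 42 (45.2%), from 18 of the 33 genes. Promoters of the same gene can overlap and share a match, as in *Lef1*. The Wnt promoters were also richer in G and C, with a median of 67.3% against 52.7%. These matches describe the letters of each window only.

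*Patz1* itself, on chromosome 11 (3288874 to 3309083, mm10), was at 1838, 1983 and 1843 normalized counts in WT and at 853.3, 862.4 and 861.5 in KO, that is 45.5% of WT. The totals were 37573923 and 46301472 counts in the deeper WT libraries and 46724594 and 47721070 in the deeper KO libraries, against 11040756 and 11420268 in replicate 3 of WT and KO. Replicate 3 stood apart in both genotypes, since *Rn45s* took 14.4% and 12.5% of its counts against at most 3.03% elsewhere. The counts of calls over all genes and over the Wnt, pathway and target genes were therefore also obtained without those libraries. The 8 markers of naive ESCs summed to between 134269 and 138774 normalized counts in WT and between 144553 and 150016 in KO, with none called. Among the markers of other cells, *Dab2* of primitive endoderm (log2 fold change 1.33, adjusted p = 0.0019) and *Thy1* of fibroblasts (0.83, adjusted p = 0.0147) were higher in KO, while the fibroblast genes *Col3a1* and *Postn* stayed at 3 counts or fewer. The 6 fibroblast markers summed to 84.1 to 111 normalized counts in WT and 134 to 169 in KO, and the 7 of primitive endoderm to 133 to 189 and 172 to 219. The higher sums in KO came mainly from *Dab2* and *Thy1*, while 5 of the 6 tested markers of primitive endoderm and 2 of the 3 tested fibroblast markers had estimates below 0, none of them called. The 6 markers of primitive streak and mesoderm summed to 846 to 1140 normalized counts in WT and 672 to 1003 in KO, with 4 of 4 tested estimates below 0 and none called. The 4 of neural progenitors summed to 104 to 121 in WT and 86.6 to 124 in KO, with *Olig2* at 3 counts or fewer. The part of these markers in the results was not tested, and in bulk RNA fewer cells of a type and less RNA per cell cannot be told apart. The libraries of a genotype are called biological replicates by the study, which defines the term by separate differentiations. What it means for undifferentiated ESCs is unclear, so the p-values measure the spread between these libraries.

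Of the 49 genes, 41 had enough counts for an adjusted p-value, and 4 of these were called at an adjusted p under 0.05 (DESeq2 Wald test), 3 lower and 1 higher in KO. The share of 9.76% stood beside 7.5% of the 15264 genes tested in all, where 4.79% were lower and 2.71% higher. *Wnt3a*, *Wnt5b* and *Axin2* were lower and *Sfrp1* was higher. Without replicate 3 of both genotypes these 4 were called again, with *Fzd7* and *Sfrp2* in addition, beside 8.53% of all genes in that fit. The median log2 fold change of the 41 was -0.04, against 0.01 over all genes tested. KO and WT values were fully separate for 10 of the 41, 6 with KO below (13.8% of all genes tested) and 4 with KO above (11.9%), against 25.7% in either direction. The other 8 genes, *Wnt1*, *Wnt2*, *Wnt5a*, *Wnt8b*, *Wnt9b*, *Wnt10b*, *Wnt16* and *Dkk4*, had no adjusted p, and *Wnt1* and *Wnt9b* had at most 3 counts in every library. Among all 49, 21 stayed under a mean of 50 normalized counts in both genotypes, where only large differences could be detected.

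**Figure D1:**
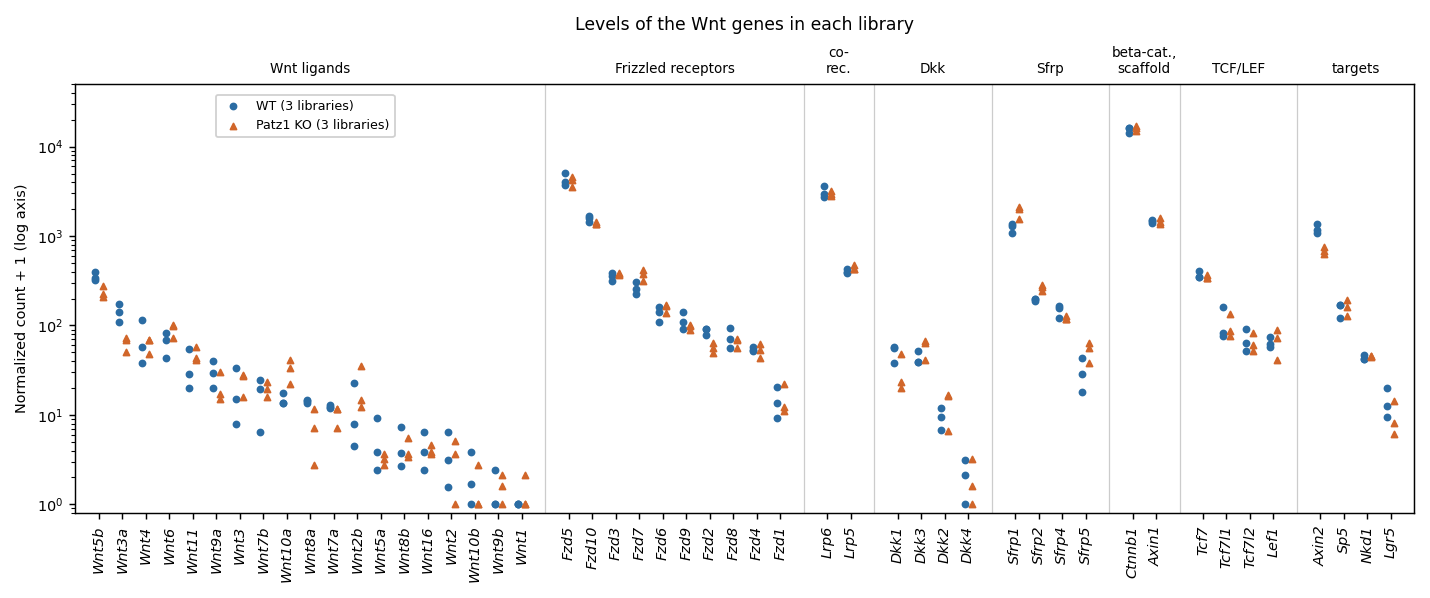
Normalized counts plus 1 (log axis) of the 49 genes in each of the 3 WT and 3 KO libraries, grouped by role. *Ctnnb1* was the highest, at about the same level in all 6 libraries, whereas most *Wnt* genes lay under 50.

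**Figure D2:**
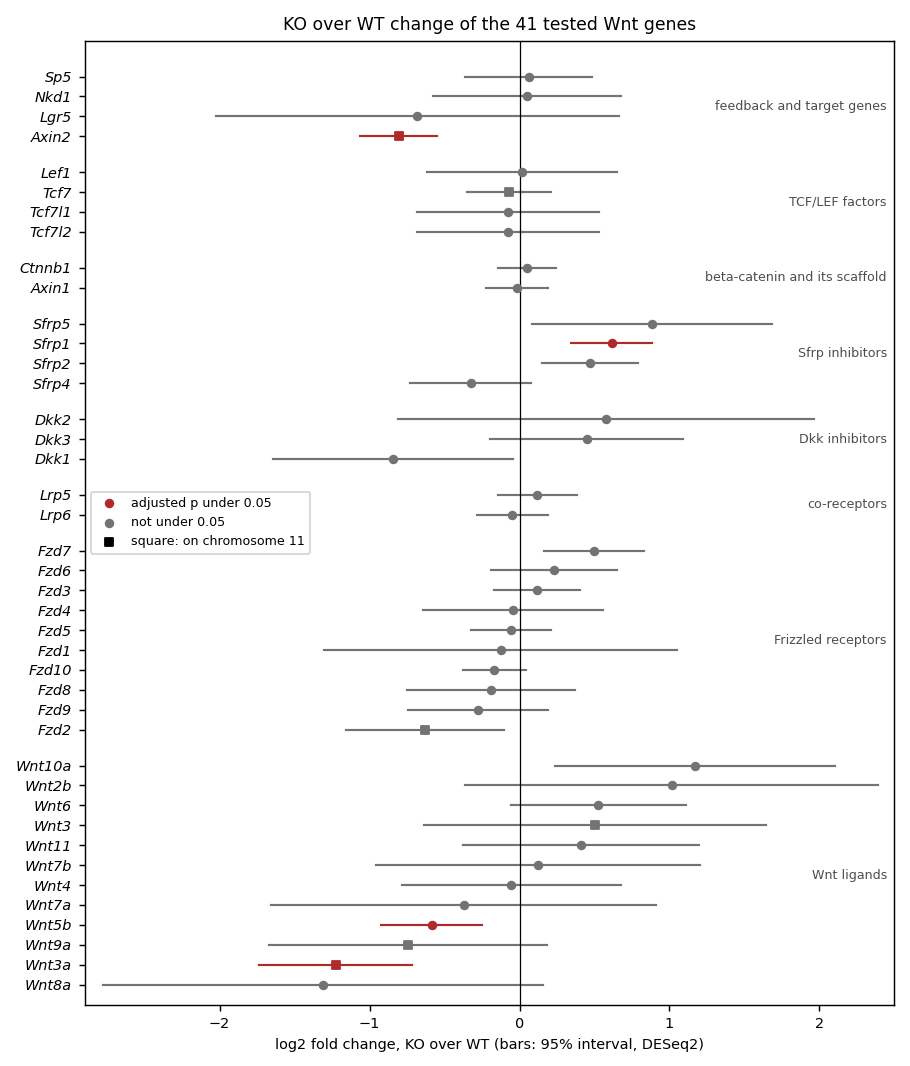
Log2 fold change of KO over WT for the 41 tested genes, with 95% intervals from DESeq2. The 4 called genes are in red, genes on chromosome 11 are squares, and the interval of *Ctnnb1*, from -0.14 to 0.24, is among the narrowest.

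The ligand RNAs were led by few genes. Per kilobase of exon, *Wnt5b* was the highest ligand in WT, at 133 ± 14.03 normalized counts per kb (SD, n = 3), followed by *Wnt3a* at 51.1 ± 11.3 and *Wnt6* at 29.3 ± 9.23. *Wnt5b* and *Wnt3a* were lower in KO by 0.58 and 1.23 on the log2 scale, no ligand was called higher, and 12 of the 19 were tested. The 19 ligands summed to 279 ± 5.83 normalized counts per kb in WT and 222 ± 23.7 in KO.

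*Wnt3a*, a ligand that activates β-catenin and is used in the primitive streak, lies on chromosome 11 (59248033 to 59290752, minus strand). Its normalized counts were 172.1, 141.2 and 109.5 in WT and 68.3, 49.2 and 71.4 in KO. Every KO library lay below every WT library, and KO stood at 44.7% of WT. The log2 fold change was -1.23 (SE 0.26, DESeq2 adjusted p = 1.20e-04). Between libraries of equal replicate number the difference in log2(normalized count + 1) was -1.32, -1.502 and -0.61. *Wnt3a* made up 18.3% of the summed ligand RNA per kb in WT and 10.2% in KO.

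*Wnt5b*, a ligand best known for signalling without β-catenin, lies on chromosome 6 (119432531 to 119544347). It was at 393.5, 322.0 and 339.5 normalized counts in WT and at 272.0, 205.8 and 224.6 in KO, again with no overlap. The log2 fold change was -0.58 (SE 0.17, DESeq2 adjusted p = 0.0126). The call was lost without WT replicate 1 (adjusted p = 0.231) and without KO replicate 2 (0.216), while the fold stayed negative. *Wnt5b* remained the leading ligand per kb in KO, at 88.2 ± 12.9, with 39.7% of the ligand sum against 47.5% in WT.

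The remaining tested ligands were not called. *Wnt10a* was at 12.6, 12.7 and 16.4 normalized counts in WT and at 32.7, 21.35 and 39.6 in KO. Its KO libraries lay above all WT libraries, and log2 KO over WT was 1.17 (SE 0.48, adjusted p = 0.127). Its neighbour *Wnt6*, 6.19 kb away on chromosome 1 and on the same strand, had a log2 fold change of 0.53 (adjusted p = 0.378), and its libraries overlapped. *Wnt9a*, 16.2 kb from *Wnt3a* on the opposite strand, had one of -0.74 (adjusted p = 0.469), also with overlap. *Wnt8a* had the lowest estimate of the 41, -1.31, with an interval from -2.78 to 0.16 at 12.6 to 13.7 normalized counts in WT and 1.78 to 10.6 in KO, where the lowest library was at the floor of 3 counts. The KO libraries of *Wnt8a* and *Wnt7a* lay below all WT libraries. *Wnt2b*, *Wnt3*, *Wnt4*, *Wnt7a*, *Wnt7b* and *Wnt11* had adjusted p-values from 0.530 to 0.972.

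**Figure D3:**
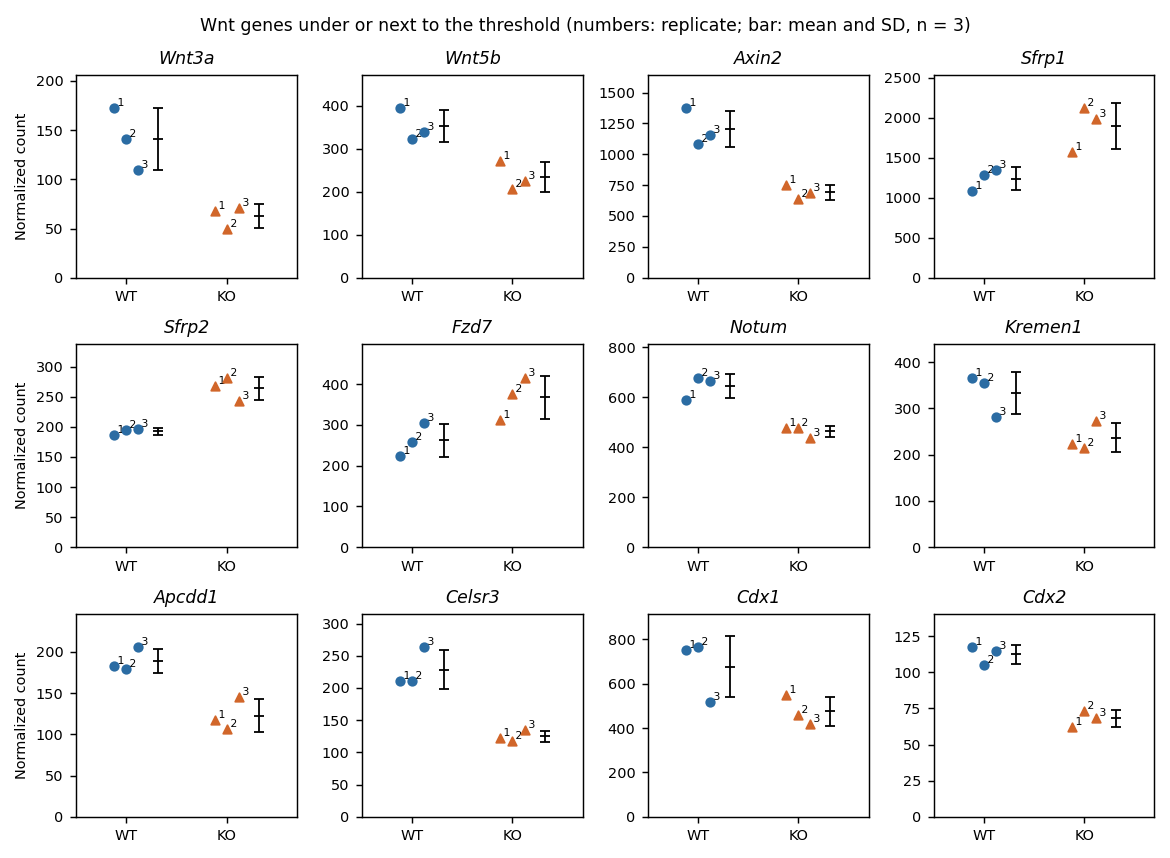
Normalized counts of 12 called or nearly called genes, the Wnt genes and others of the pathway, in each library of WT and KO. Points carry their replicate number and bars give mean and SD (n = 3). The KO libraries of *Wnt3a*, *Wnt5b* and *Axin2* lay below those of WT and the KO libraries of *Sfrp1* above.

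None of the 10 Frizzled receptors was called, and all 10 were tested. *Fzd5*, required in the yolk sac and placenta of the mouse embryo, led the family per kilobase, at 622 ± 105 normalized counts per kb in WT and 598 ± 77.3 in KO. *Fzd5* held 47.4% of the summed receptor RNA in WT and *Fzd10* 36.6%, so that these receptors made up most of it. An antisense gene overlaps 17.8% of the exon bases of *Fzd5*, and its reads may be included. *Fzd5* was at 4056, 3725 and 5115 normalized counts in WT and at 4278, 3543 and 4582 in KO. These values overlapped, and log2 KO over WT was -0.05 (SE 0.14, adjusted p = 0.919).

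*Fzd7*, a receptor expressed in undifferentiated ESCs, came closest to a call among the receptors. Its normalized counts were 224.8, 257.0 and 303.9 in WT and 311.0, 375.4 and 414.9 in KO, with no overlap. The log2 fold change was 0.50 (SE 0.17) at an adjusted p of 0.0501, and with the replicate number as a block, which called 14.7% of all genes, the adjusted p was 0.00636. Without a single library it ranged from 0.0125 (WT replicate 3) to 0.435 (WT replicate 1), and it was 0.0663 by edgeR. *Fzd2*, on chromosome 11, was at 89.2, 90.4 and 76.7 in WT and at 48.5, 63.5 and 55.5 in KO. All its KO libraries lay lower, with a log2 fold change of -0.63 (adjusted p = 0.151). *Fzd1*, *Fzd3*, *Fzd4*, *Fzd6*, *Fzd8*, *Fzd9* and *Fzd10* had overlapping libraries and log2 fold changes from -0.28 to 0.23.

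The co-receptors did not differ detectably. *Lrp6* was at 2921, 2738 and 3620 normalized counts in WT and at 2946, 2809 and 3192 in KO (log2 fold change -0.05, 95% interval -0.29 to 0.19, adjusted p = 0.916). *Lrp5* was at 400.3, 387.0 and 427.1 in WT and at 428.3, 422.3 and 470.4 in KO (0.12, interval -0.14 to 0.38, adjusted p = 0.772). *Lrp6* was the more abundant of the pair per kilobase, with 84.4% of their sum in WT and 82.8% in KO.

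Among the secreted inhibitors, *Sfrp1* was higher in KO, and *Sfrp2* lay just past the threshold. SFRP proteins carry a Frizzled-like domain and bind Wnt ligands outside the cell. *Sfrp1*, on chromosome 8 (23411502 to 23449632), was at 1079, 1289 and 1350 normalized counts in WT and at 1569, 2117 and 1990 in KO. All KO libraries lay above all WT libraries, 1.53-fold in the means. The log2 fold change was 0.61 (SE 0.14, DESeq2 adjusted p = 3.99e-04). *Sfrp1* led its family per kilobase in both genotypes, at 283 ± 32.6 normalized counts per kb in WT and 433 ± 65.6 in KO.

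*Sfrp2* was at 186.4, 194.9 and 197.1 normalized counts in WT and at 266.9, 281.1 and 243.1 in KO, with no overlap. Its log2 fold change was 0.47 (SE 0.16) at an adjusted p of 0.0505, and at 0.0365 with the replicate block. Without a single library the adjusted p ranged from 0.0472 (KO replicate 3) to 0.387 (KO replicate 2), and it was 0.0469 by edgeR. Its exons share 16.1% of their bases with an antisense gene. *Sfrp5* had a log2 fold change of 0.88 (adjusted p = 0.213) and *Sfrp4* one of -0.32 (adjusted p = 0.465), and the libraries of both overlapped. The 4 *Sfrp* genes summed to 424 ± 37.8 normalized counts per kb in WT and 612 ± 68.3 in KO, to which *Sfrp1* gave the largest share.

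The *Dkk* genes, a family named for DKK1, an inhibitor that binds LRP5 and LRP6, were low. *Dkk1* led them per kilobase in WT, at 20.2 ± 4.45 normalized counts per kb, and *Dkk3* in KO, at 16.8 ± 4.35. *Dkk1*, itself a β-catenin target, was at 36.6, 55.8 and 54.8 normalized counts in WT and at 19.2, 22.5 and 47.6 in KO. KO replicate 3 fell within the WT range, and the log2 fold change of -0.84 was not called (SE 0.41, adjusted p = 0.245). The adjusted p was 0.0463 without that library, 0.116 without replicate 3 of both genotypes, 0.141 with the replicate block and from 0.354 to 0.797 without any other single library. *Dkk2* and *Dkk3* had log2 fold changes of 0.58 and 0.45 with overlapping libraries.

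β-Catenin RNA was abundant and did not differ detectably, though 14.6% of the exon bases of *Ctnnb1* are shared with *Ulk4* on the opposite strand. *Ctnnb1* stood at 15541 ± 1033 normalized counts (SD, n = 3) in the WT libraries and at 16093 ± 1116 in the KO libraries, with a log2 fold change of 0.05 (interval -0.14 to 0.24, adjusted p = 0.891). *Axin1*, the scaffold of the destruction complex, was at 1482, 1514 and 1391 in WT and at 1428, 1373 and 1570 in KO (-0.02, interval -0.22 to 0.19, adjusted p = 0.972). Both sets of libraries overlapped, and protein was not measured.

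None of the 4 TCF/LEF factors was called. *Tcf7*, which encodes TCF1, led them per kilobase, with 77.6% of their sum in WT and 77.1% in KO. It was at 351.1, 350.2 and 405.2 normalized counts in WT and at 363.4, 336.3 and 340.9 in KO, and log2 KO over WT was -0.07 (SE 0.14, adjusted p = 0.897). *Tcf7l1*, which encodes TCF3, a repressor of pluripotency genes, was at 80.6, 74.85 and 158.8 in WT and at 86.3, 75.3 and 132.1 in KO (-0.08, SE 0.31, adjusted p = 0.951). Replicate 3 was the highest in both genotypes. *Tcf7l2* was at 51.5, 62.1 and 90.4 in WT and at 50.8, 59.3 and 81.9 in KO (-0.08, SE 0.31, adjusted p = 0.949). *Lef1* was at 56.6, 61.4 and 73.9 in WT and at 70.5, 40.3 and 87.2 in KO (0.02, SE 0.32, adjusted p = 0.990), so that its KO values spread on either side of WT. Of its exon bases, 13.7% are shared with an antisense gene.

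Of the 4 feedback and target genes, *Axin2* alone was called. *Axin2*, the negative regulator widely read as a reporter of β-catenin activity, lies on chromosome 11 (108920349 to 108950783). It was at 1371, 1085 and 1158 normalized counts in WT and at 749.5, 635.2 and 687.1 in KO. Every KO library lay below every WT library, and KO stood at 57.3% of WT. The log2 fold change was -0.81 (SE 0.13, interval -1.06 to -0.55, DESeq2 adjusted p = 1.06e-07). With chromosome 11 centred in each library it was -0.53, outside that interval, and still called. Differences between libraries of equal replicate number were -0.87, -0.77 and -0.75.

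The other targets of this set gave no call. *Sp5*, a transcription factor that is a direct target of β-catenin, was at 170.4, 168.1 and 120.5 normalized counts in WT and at 191.3, 161.3 and 126.8 in KO. Its libraries overlapped, and log2 KO over WT was 0.06 (SE 0.22, interval -0.36 to 0.48, adjusted p = 0.942). *Nkd1*, which restrains Dishevelled, was at 45.75, 40.96 and 41.07 in WT and at 43.5, 45.1 and 44.9 in KO (0.05, interval -0.58 to 0.68, adjusted p = 0.969). *Lgr5*, a receptor for R-spondins, was low, at 11.4, 8.47 and 19.2 in WT and 5.08, 7.12 and 13.2 in KO (-0.68, interval -2.03 to 0.66, adjusted p = 0.735). The difference between *Sp5* and *Axin2* was not tested.

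Outside the 49 genes, 61 further pathway genes were listed by role. Of these, 55 were tested and 4 were called, all lower in KO. This share of 7.27% stood beside 7.5% of all genes tested that were called in either direction and 4.79% that were called lower. *Notum*, which encodes an enzyme that removes the lipid from Wnt ligands, was at 587.9, 677.2 and 665.4 normalized counts in WT and at 476.9, 476.8 and 436.0 in KO (-0.46, SE 0.13, adjusted p = 0.00738). *Kremen1*, a receptor for Dkk proteins, was at 366.0, 354.5 and 282.0 in WT and at 222.9, 214.7 and 272.2 in KO (-0.55, SE 0.17, adjusted p = 0.0199). Both lie on chromosome 11, and neither was called with that chromosome centred in each library. *Notum* shares 29.4% of its exon bases with an antisense gene, so that its count may include antisense reads. Leaving out WT replicate 2 ended the call of *Notum* (adjusted p = 0.138), as did leaving out replicate 1 or 2 of KO (0.0693 and 0.0677). *Kremen1* was not called without replicate 1 or 2 of either genotype (adjusted p from 0.222 to 0.272).

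*Apcdd1*, a membrane inhibitor of the pathway, was at 182.4, 178.7 and 205.4 in WT and at 116.8, 106.2 and 145.3 in KO (-0.65, SE 0.20, adjusted p = 0.0191). *Celsr3*, a cadherin of the planar polarity pathway, was at 210.5, 211.1 and 262.9 in WT and at 122.5, 117.4 and 134.8 in KO (-0.86, SE 0.19, adjusted p = 2.09e-04). *Apcdd1* was not called without any single library other than KO replicate 3 (adjusted p from 0.0566 to 0.280), whereas *Celsr3* was called every time. The libraries of all 4 genes were separate. Without replicate 3 of both genotypes 5 pathway genes were called, *Btrc* being the addition, beside 8.53% of all genes. None of the 5 tested genes for R-spondins and receptor turnover, the 17 of signal relay and the destruction complex or the 13 nuclear partners of β-catenin was called, although 2, 4 and 1 of them had an unadjusted p under 0.05 (DESeq2), as had 17.2% of all genes tested. With the replicate block 10 of the pathway genes were called, 9 lower and 1 higher, beside 14.7% of all genes (7.98% lower, 6.71% higher, and 39.1% of chromosome 11 genes lower). The additions were *Amer1*, *Btrc*, *Csnk1d*, *Fbxw11* and *Znrf3*, lower, and *Aes*, higher. *Csnk1d*, *Fbxw11* and *Znrf3* lie on chromosome 11. With that chromosome centred as well as the block, these 3 were not called (adjusted p = 0.654, 0.883 and 0.708), and the estimates of *Csnk1d* and *Fbxw11* turned to 0.07 and 0.03. That fit called 5 pathway genes, beside 11.1% of all genes.

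Of 12 further genes known as Wnt targets, 11 were tested and 2 were called, both lower in KO (18.2%, against 7.5% of all genes in either direction and 4.79% lower). The genes were listed with earlier results of these data known, so this share is not a test of Wnt targets. *Cdx2*, a homeobox gene of the trophectoderm and posterior embryo, was at 117.2, 105.2 and 115.0 normalized counts in WT and at 62.1, 73.5 and 68.7 in KO (-0.72, SE 0.24, adjusted p = 0.0349). *Cdx1*, its relative in axial patterning, was at 750.3, 763.3 and 517.5 in WT and at 546.9, 460.2 and 417.5 in KO (-0.52, SE 0.17, adjusted p = 0.0288). The libraries of *Cdx1* overlapped and those of *Cdx2* did not. *Cdx2* was not called without any 1 of the 6 libraries (adjusted p from 0.0591 to 0.290) or without both of replicate 3 (0.099). *Cdx1* was not called without replicate 1 or 2 of WT or replicate 2 or 3 of KO (adjusted p from 0.130 to 0.323), nor by edgeR (0.0628). *T*, the mesoderm gene brachyury, had a log2 fold change of -0.11, the cell-cycle gene *Ccnd1* one of 0.03 and *Myc* one of -0.06, with adjusted p-values of 0.908, 0.937 and 0.916.

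Chromosome 11 as a whole was lower in KO. The median log2 fold change of its 960 tested genes with a mean of at least 50 was -0.26, against 0.03 for 10071 genes of the other autosomes. Among its tested genes 20.3% were called lower. Of the 49 Wnt genes, 7 lie there and 6 were tested, with 2 called lower and a median of -0.69 over the 6. Of the 35 tested on other chromosomes, *Wnt5b* was called lower and *Sfrp1* higher, which is 5.71%, beside 6.27% of all tested genes placed on those chromosomes. *Wnt3a* lay below all but 1.25% of the 960 genes of chromosome 11 and *Axin2* below all but 4.90%, whereas 85.5% lay below *Tcf7*. Of the 960, 98.4% lay below *Wnt3*, which was itself under that mean, at 20.4, and was not called (DESeq2 adjusted p = 0.782). With chromosome 11 centred in each library 4 of the Wnt genes were called, 3 lower and 1 higher, beside 5.78% of all genes (3.2% lower, 2.58% higher) and 3.87% of chromosome 11 genes lower. *Wnt3a* then kept a log2 fold change of -0.95 (adjusted p = 0.0051) and *Axin2* one of -0.53 (adjusted p = 4.51e-04). *Notum* and *Kremen1*, at -0.20 and -0.27, were no longer called (adjusted p = 0.603 and 0.479).

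**Figure D4:**
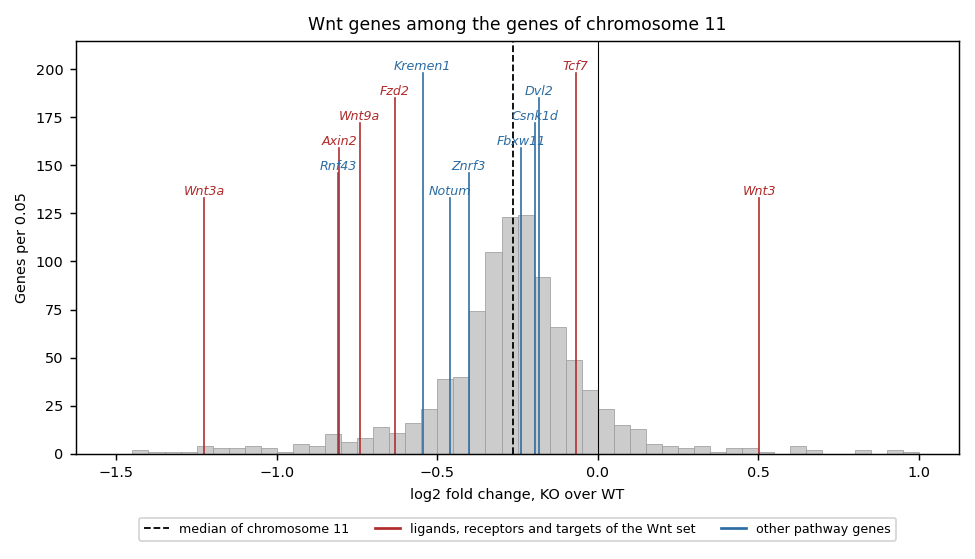
Histogram of log2 fold changes (KO over WT, from -1.5 to 1.0) of the 960 tested genes of chromosome 11 with a mean of at least 50, 9 of which lie beyond the axis. Lines mark the Wnt genes and other pathway genes of that chromosome, and the dashed line is the median of -0.26, with *Wnt3a* and *Axin2* in the lower tail.

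The calls for *Wnt3a*, *Axin2* and *Sfrp1* held in all 16 alternative analyses, and that for *Wnt5b* in 14. Some alternatives could change little. Keeping symbols without a count left these fold changes as they were, and centring chromosome 11 left *Sfrp1* at 0.61 and *Wnt5b* at -0.58. The log2 fold change ranged from -1.42 to -0.95 for *Wnt3a*, from -0.88 to -0.53 for *Axin2*, from -0.73 to -0.48 for *Wnt5b* and from 0.52 to 0.74 for *Sfrp1*.

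**Figure D5:**
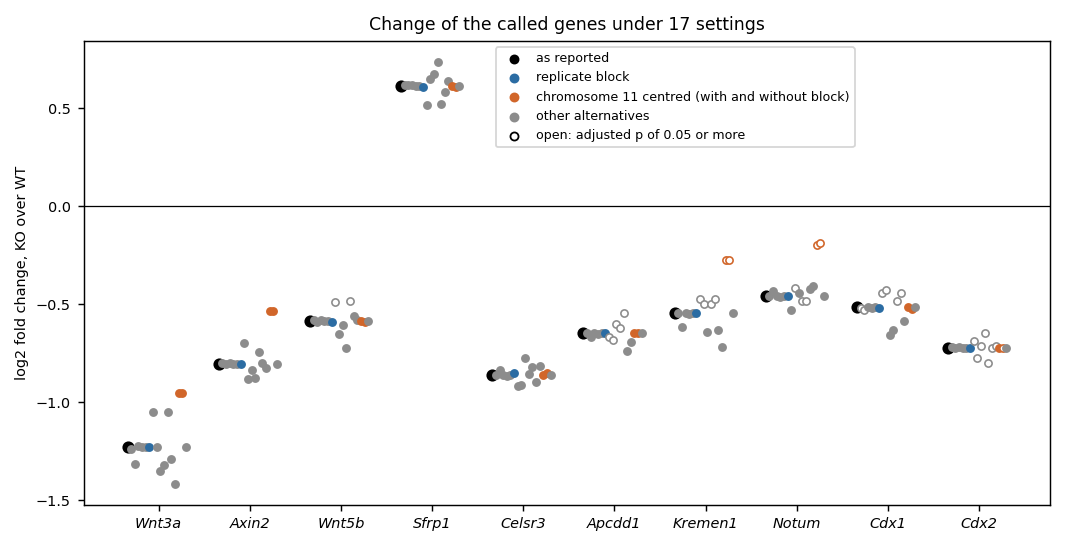
Log2 fold change of selected genes under each analysis setting, the reported one and 16 alternatives. The points of *Wnt3a*, *Axin2* and *Wnt5b* stay below 0 and those of *Sfrp1* above it in every setting.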

How the data were processed

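Ribosomal RNA was depleted and stranded libraries were made from total RNA of 3 WT and 3 KO samples, grouped by their titles. The authors deposited raw read counts per gene symbol, 1 table per library, without normalization. Per the submitters' processing notes, TopHat2 (2.1.1), Bowtie2 (2.3.1.0) and featureCounts (1.6.2) were used with mm10. The annotation and the use of strand in counting are not given in the sources used here, so overlapping genes are uncertain.

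Differential expression was tested with the two-sided Wald test of DESeq2 (1.42.0, R 4.3.3) on the 19404 symbols with a count. Settings were median-of-ratios size factors, genotype as the only term, filtering optimised at 0.1, no shrinkage and a Benjamini-Hochberg adjusted p under 0.05. The script was tested on simulated data with 200 changed genes. Normalized counts are counts divided by size factors, and per kb values divide by the merged exon length of GENCODE M21. A floor of 3 counts was 1.69 to 8.21 normalized counts. The floor covers counting error only, whereas the intervals of log2 fold changes, from DESeq2, include the spread between libraries.

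Alternatives were edgeR (4.0.16), limma-voom (limma 3.58.1), TMM factors, at least 10 counts in 3 libraries, no independent filtering, the replicate block, leaving out each library or both of replicate 3, and chromosome 11 centred, with and without the block. Keeping symbols without a count was added after seeing the data. Equal replicate numbers deviated together between genotypes (r = 0.469, 0.619 and 0.684 over 11524 genes), so the numbers were taken to pair the samples. The members and lists were chosen with earlier results of these data known. Named with values were the called genes, the receptors, factors and targets listed by symbol and the leading gene of each family per kb. *Wnt6*, *Wnt8a*, *Wnt9a*, *Wnt10a*, *Fzd2*, *Fzd7*, *Sfrp2*, *Sfrp4*, *Sfrp5* and other uncalled family members were given values after these were seen.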

Additional observations from a re-analysis of the deposited data

How the results depend on the processing

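The count of Wnt genes called was between 3 and 6 under the 16 alternatives, against 4. All genes called numbered 1145 (414 higher, 731 lower), 2132 with the replicate block, 1742 with chromosome 11 centred and the block (999 higher, 743 lower) and 583 to 1328 with 1 library left out. The other pathway genes gave 10 calls with the block (beside 14.7% of all genes), 2 with chromosome 11 centred (beside 5.78%) and 1 to 5 with 1 library left out. *Apcdd1* was lost in 5 of those 6 fits, *Kremen1* in 4 and *Notum* in 3. The further targets gave 1 call with edgeR (beside 1059 of all genes), limma-voom (1035), both replicate 3 libraries left out (1324) and chromosome 11 centred with the block (1742). With 1 library left out they gave 0 to 1 calls by DESeq2. In each of these fits 2 of them had an unadjusted p under 0.05, as had 1874 to 2909 of all genes. Pairing by the replicate block added *Fzd7* and *Sfrp2* to the Wnt genes called and changed no other call among them. The sign of several uncalled genes near 0 turned. It did so without both replicate 3 libraries for *Fzd5* (0.0075), *Lef1* (-0.088), *Lrp6* (0.024) and *Tcf7l1* (0.056), and with limma-voom for *Lef1* (-0.085) and *Tcf7l1* (0.0060). *Lef1* was at -0.030 with the block, with or without chromosome 11 centred, and *Tcf7* at 0.20 with chromosome 11 centred, with or without the block. Leaving out 1 library gave ranges of -0.064 to 0.028 for *Axin1*, -0.0055 to 0.10 for *Ctnnb1*, -0.15 to 0.082 for *Fzd5*, -0.17 to 0.30 for *Lef1*, -0.13 to 0.069 for *Lrp6*, -0.089 to 0.17 for *Sp5*, -0.30 to 0.27 for *Tcf7l1* and -0.26 to 0.11 for *Tcf7l2*. The cause of these changes was not tested. The low counts of replicate 3 limit what can be seen for genes under a mean of 50.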
